A study of Mus musculus with 24 samples.

Results

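The 37 genes described here run the cell division cycle and copy the genome. They were chosen by name as genes of the cell cycle, with earlier results of these data known, and all 37 were found among the 24062 genes counted in the mouse brain libraries. For the description they were sorted by role into G1 and S phase cyclins with their kinases (6 genes), origin licensing and the MCM helicase (9), DNA synthesis and nucleotide supply (4), G2 and M phase cyclins with Cdk1 (4), mitotic kinases, checkpoint and anaphase genes (8), and mitotic chromosome and spindle genes (6).

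The study took brain tissue from 5 wild-type (WT) mice and 5 Celf6 knockout (KO) mice at postnatal day 9. CELF6 binds RNA and belongs to the CELF proteins, which act in splicing and RNA stability. The cortex was removed and tissue behind the thalamus was used, from which total RNA (called input) was extracted and ribosome-bound RNA of serotonin cells was pulled down by TRAP, translating ribosome affinity purification. The protocol gives the same serotonin-cell TRAP allele for all samples, WT included. The strain and the part of Celf6 that is deleted are not given in the sources used here.

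The groups used were 5 KO input, 3 WT input, 5 KO TRAP and 5 WT TRAP libraries, sequenced in 2 runs. The WT input 4 library and 4 repeat runs were left out because the submitters did not use them. Run 1 held replicates 1 to 3 and run 2 replicates 4 and 5, so the runs also differ in mice. In run 2, WT input 5 was the only WT input library used. WT input 2 and WT input 3 were summed and counted as 1 library, because their log2 levels in CPM (read counts scaled by library size) correlated at r = 0.996 over all genes. Repeat runs of 1 library correlated at 0.995 to 0.997, and other pairs of libraries within a group at 0.913 to 0.949. Total counts ran from 3390423 to 11205985 per library (the highest being the summed library), and 13788 to 16370 genes had a read. Levels below are in CPM after TMM scaling, a trimmed mean normalization of library size. A count of 0 allows a level of up to 0.252 to 0.904 CPM, depending on the library, from counting error alone at 3 counts. As checks of the labels, Celf6 measured 15.2 ± 6.37 CPM (SD, n = 5) in KO input and 51.0 ± 47.2 (n = 3) in WT input, and 51.3 ± 38.1 in KO TRAP and 142 ± 41.5 in WT TRAP (n = 5 each). Its RNA was therefore lower on average but present in the KO libraries, and neither difference passed edgeR's adjusted threshold of 0.05 (adjusted p = 1.00 in input and 0.9992 in TRAP). Of 10 serotonergic marker genes, 9 were higher in TRAP than in input by the same test, among them Tph2, the enzyme that starts serotonin synthesis (log2 fold change 5.89 ± 0.36 SE, adjusted p = 1.44e-11).

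A dividing cell passes from G1 into S phase when D-type cyclins with CDK4 and E-type cyclins with CDK2 inactivate the RB repressor and release E2F transcription factors. Origins are licensed for replication when CDC6 and CDT1 load the MCM2-7 helicase, and mitosis follows when B-type cyclins activate CDK1, after which the anaphase-promoting complex with CDC20 destroys them. Serotonin neurons have left the cycle before birth, while oligodendrocyte progenitors, cerebellar granule cell precursors and some glia still divide in the brain of a mouse pup.

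The promoters of these genes are known for a few short motifs, which are shown here to describe the members without use of the counts. RefSeq promoter windows on GRCm38.p6, 250 bases before to 50 bases after each gene start, were matched to 29 of the 37 members, in 31 windows of 300 bases. The E2F letters searched were TTTCCCGC, TTTCGCGC, TTTGCCGC and TTTGGCGC, the letters of the cell cycle homology region (CHR) were TTTGAA and TTTAAA, and the CCAAT box was searched as CCAAT, each on both strands. Matches can overlap: the Mcm5 window below also holds TTTGGCGC on the other strand. Below are 3 E2F matches and 2 CHR matches, from 4 members described below and from Cdk1, shown because it holds both motifs, written 5′ to 3′ along the gene's strand, with the motif in capitals.

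Mcm5, E2F, chr8:75109345-75109374, plus strand: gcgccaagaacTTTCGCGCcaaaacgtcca
Mcm6, E2F, chr1:128359734-128359763, minus strand: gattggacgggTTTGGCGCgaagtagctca
Cdk1, E2F, chr10:69353025-69353054, minus strand: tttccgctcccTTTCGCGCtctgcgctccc
Ccnb2, CHR, chr9:70421704-70421733, minus strand: cagggactagaaTTTGAAaataagactgta
Mki67, CHR, chr7:135716460-135716489, minus strand: ccgccgttttggTTTGAAtcgggcgggctg

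An E2F match was found in 8 of 31 member windows (25.8%) and in 2.26% of all 32851 promoter windows. It lay in 6 of the 7 licensing and MCM genes that had a window (Cdc6, Cdt1, Mcm3, Mcm5, Mcm6 and Mcm7), and otherwise in Cdk2 and Cdk1. A CHR match was found in 19 of 31 windows (61.3%), against 27.6% of all windows. It lay in all 3 G2 and M cyclin genes with a window, 6 of 7 mitotic kinase and checkpoint genes and 5 of 5 chromosome and spindle genes. It also lay in 2 of 7 licensing genes, 1 of 4 DNA synthesis genes (Rrm2) and 1 of 3 G1 and S genes (Ccne1). No DNA synthesis gene had an E2F match, so the motifs did not divide the members cleanly by phase. A CCAAT box was found in 25 windows (80.6%), against 37.4% of all. Mcm5 and Cdk1 had both an E2F and a CHR match, and Cdk4, Pcna, Rrm1, Tyms and Bub1 had neither. The matches describe the letters in these windows and were not measured as bound sites. The map of motif positions shows the E2F matches mostly in the upper rows, largely licensing genes, and the CHR matches mostly in the lower rows.

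**Figure D1:**
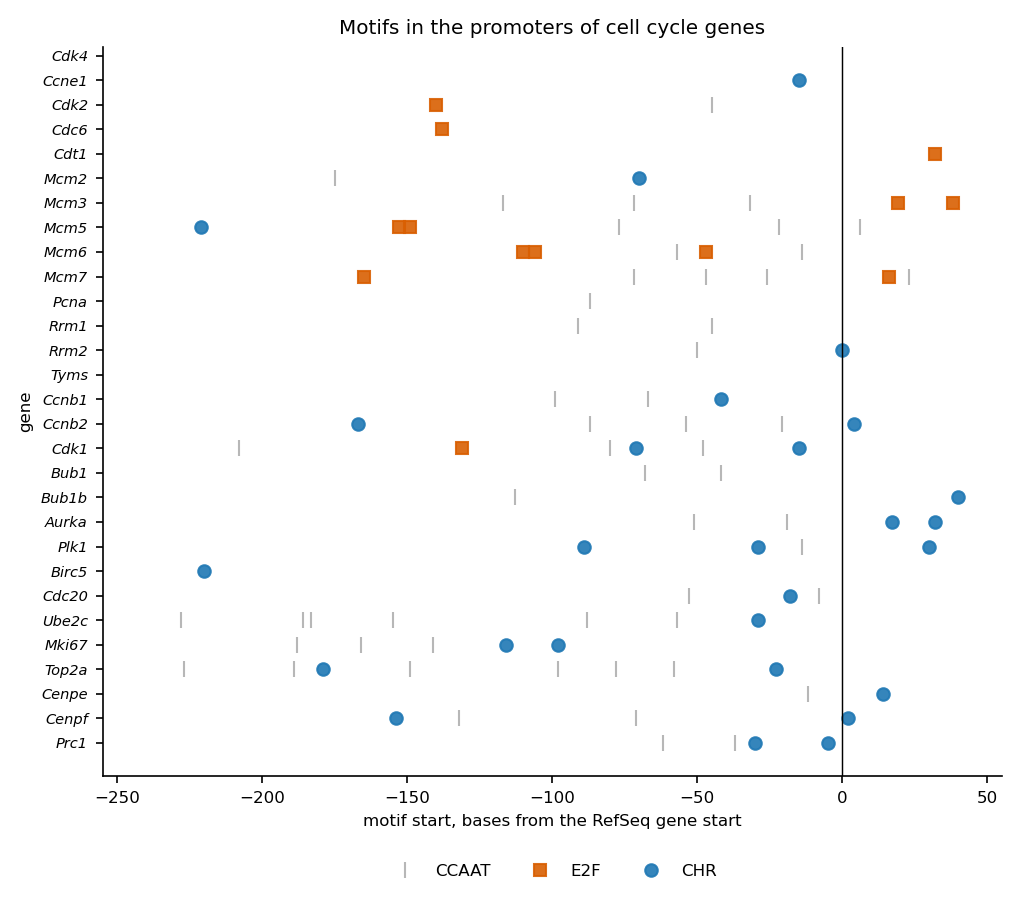
Start of each E2F (orange square), CHR (blue circle) and CCAAT (grey bar) match in the promoters of 29 members, in bases from the RefSeq gene start (x axis), with genes in order of role from G1 at the top to mitosis at the bottom (y axis). E2F matches lie in 8 genes, 6 of them licensing genes, and CHR matches lie in 18 genes, most of them mitotic.

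Most of the 37 genes were expressed at a low level in both kinds of RNA. In input, per kilobase of exon, Cdk4, the kinase partner of the D-type cyclins, had the highest mean level at 86.7 ± 59.7 CPM per kb (SD, n = 8). It was followed by Ube2c, the ubiquitin-conjugating enzyme of the anaphase-promoting complex, at 26.1 ± 12.7 CPM per kb. Ccnd1 (cyclin D1) had 15.3 ± 4.54 CPM per kb and Pcna, the sliding clamp of the DNA polymerases, 12.3 ± 5.00. Ccnb2 (cyclin B2) had 9.91 ± 13.4, Mcm6 8.42 ± 4.61, Ccnd2 (cyclin D2) 7.85 ± 5.54, Rrm1 7.26 ± 3.43 and Ccna2 (cyclin A2) 7.03 ± 4.27 CPM per kb. Cdk4 stood above Pcna in the mean by more than the SD of either gene, whereas neighbours from Pcna to Ccna2 differed by less than their SDs. At the low end Cdc6, which loads the helicase at origins, had 0.0851 CPM per kb in input and no read in 8 of the 18 libraries.

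The summed level of the 37 genes ran from 309 to 727 CPM in the 8 input libraries (median 484) and from 233 to 419 CPM in the 10 TRAP libraries (median 302). The ranges overlapped, with the lowest input library, KO input 2, inside the TRAP range. Ccnd1, Ccnd2 and Cdk4 made 31.5% to 56.7% of that sum in input and 26.2% to 40.0% in TRAP. Without these 3 genes the sums were 162 to 330 CPM in input (median 307) and 157 to 303 in TRAP (median 187). KO input 2 was again the lowest input library. Between 0 and 3 members had no read in an input library, and between 1 and 11 in a TRAP library. For the members' scatter, the median absolute difference between 2 libraries of a group was 0.757 to 2.03 on the log2 CPM scale, whereas between repeat runs of 1 library it was 0.166 to 0.437. Members therefore varied far more between libraries of a group than between sequencing runs of the same library. The plot of the 6 highest members shows this spread within each group.

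**Figure D2:**
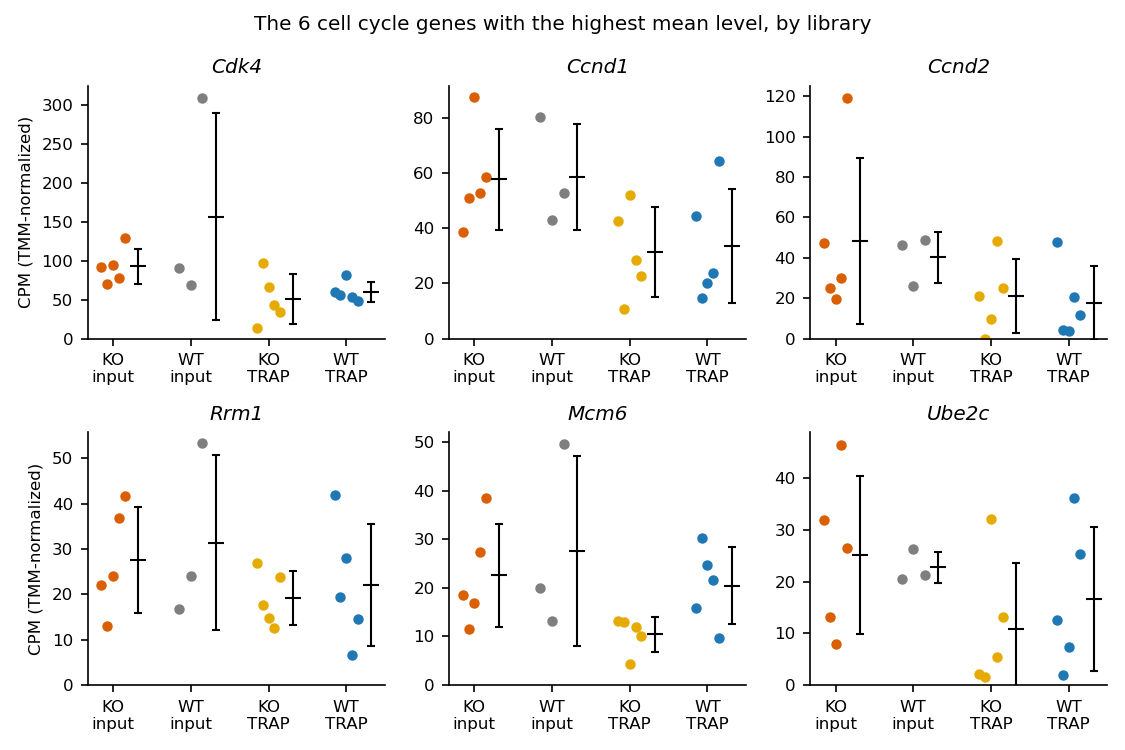
Level in CPM after TMM scaling (y axis, from 0, each panel on its own scale) of the 6 members with the highest mean, by library (points) in the 4 groups (x axis), with the mean and SD as a black bar beside each group. Cdk4 reaches 309.8 CPM in WT input 5 and lies between 13.5 and 96.9 CPM in the TRAP libraries.

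The first comparison set the RNA pulled down by TRAP against the total RNA of the tissue, and asked whether the cell cycle genes were lower in TRAP. None of the 36 members tested passed edgeR's adjusted threshold, although 27 of the 36 had a negative log2 fold change in TRAP and 9 a positive one (all genes 48.4% and 51.6%). Over all 14261 genes tested, 2.41% were called higher in TRAP and 2.31% called lower. The members' median log2 fold change was -0.58, against 0.02 for all genes. At an unadjusted p below 0.05, 7 members were lower (19.4%, against 9.4% of all genes) and 0 higher (against 9.59% of all genes). The filter on low counts took all 18 libraries together, so a gene with enough reads in input alone could enter. Cdk2, Cdt1, Ccnb1, Ccnb2, Aurkb, Cdc20, Cenpe and Cenpf passed the filter in input but not in TRAP alone. All had negative values (-0.36 to -2.80), and Cdt1, Ccnb2 and Cenpe were among the 7. As they passed in input and not in TRAP, the filter favoured their negative sign. The counts and the median above include these genes. So do the medians by role below (all roles but DNA synthesis) and those of the E2F and CHR sets. Every member tested in TRAP alone was also tested in input. The adjusted threshold was passed by some members under other settings, all of them lower in TRAP: Cdk4 and Ccnb2 with DESeq2 (4.83% of all genes called lower), Cdk4 with RLE factors (2.43%), Cdk4, Ccnd2 and Ccnb2 with no filter on low counts (2.83%), and Cdk4 without the run term (2.15%). With a library left out, Cdk4 passed without WT input 2/3 (1.75%) or KO TRAP 2 (2.32%), Ccnd2 without WT TRAP 1 (2.46%), Ccnb2 without WT TRAP 5 (1.99%), and Cdk4, Ccnb2, Ube2c and Aurka without KO TRAP 3 (3.29%). Markers of other cells were also read in TRAP. Those of myelinating oligodendrocytes summed to a mean of 3398 ± 2030 CPM (SD, n = 10) in TRAP and 8294 ± 2722 CPM (n = 8) in input. In such bulk RNA, fewer cells of a type, less RNA per cell, RNA carried over from other cells and ribosome loading cannot be told apart.

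Among the G1 and S phase genes, Cdk4 came closest to the threshold. Cdk4 measured 68.5, 91.8 and 309.8 CPM as the lowest, median and highest of the 8 input libraries, and 13.5, 55.2 and 96.9 CPM in the 10 TRAP libraries. In 8 of 10 TRAP libraries it lay below the lowest input library, but KO TRAP 2 and WT TRAP 3 lay within the input range. The log2 fold change was -1.08 ± 0.33 (SE, edgeR adjusted p = 0.0540), and DESeq2 gave -1.10 (adjusted p = 0.0156). Without WT input 5, its highest library, the value was -0.61, and over all alternatives the adjusted p ran from 0.00504 to 0.408. Taken run by run on mean log2 CPM, Cdk4 differed by -0.60 in run 1 and by -1.98 in run 2. WT input 5 was the only WT input library of run 2.

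The D-type cyclins, which carry mitogen signals to CDK4, were also lower on average. Ccnd1 measured 38.8, 52.9 and 87.9 CPM as lowest, median and highest in input and 10.6, 26.3 and 64.6 CPM in TRAP, with 6 of 10 TRAP libraries below the lowest input library. Its log2 fold change was -0.85 ± 0.34 (adjusted p = 0.160). Ccnd2 measured 19.4, 38.1 and 119 CPM in input and 0, 16.1 and 48.4 CPM in TRAP, with a log2 fold change of -1.23 ± 0.57 (adjusted p = 0.235). The 0 was KO TRAP 2, and the groups of both genes overlapped. Without WT TRAP 1, the Ccnd2 value was -1.98 and passed (adjusted p = 0.0312). By run, Ccnd2 differed by -2.30 in run 1 and -1.20 in run 2.

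Ccne1, the cyclin E1 that pairs with CDK2 at the start of S phase, had the opposite sign. It measured 5.54, 9.46 and 12.1 CPM in input and 4.08, 17.6 and 31.6 CPM in TRAP, with a log2 fold change of 0.87 ± 0.45 (adjusted p = 0.290). Only WT TRAP 3, at 4.08 CPM, lay below the lowest input library, and only WT TRAP 5, at 8.56 CPM, lay within the input range. Every other TRAP library, at 12.9 to 31.6 CPM, lay above the highest input library. The median over the 6 G1 and S genes was -0.96, at -0.92 over the 5 tested in the WT libraries alone and 0.09 over 6 in the KO libraries alone, and without WT input 2/3 it was -0.61.

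The licensing genes had a median of -0.45 over 8 tested members, and of -0.15 without WT input 5. Among the 8 was Cdt1, which passed the filter in input but not in TRAP alone. Mcm5, a subunit of the replicative helicase, measured 0.301, 4.48 and 22.9 CPM in input and 0.163, 1.87 and 9.63 CPM in TRAP (log2 fold change -1.79 ± 0.76, adjusted p = 0.188). Mcm6 had -0.66 ± 0.40 (-0.41 without WT input 5), Mcm2 -0.78 ± 0.77, Mcm4 0.03 ± 0.52, Mcm7 0.32 ± 0.69 and Mcm3 0.44 ± 1.01 on the same log2 scale. Cdt1, which brings the helicase to origins, had -2.61 ± 1.20 (adjusted p = 0.231), and its inhibitor Gmnn (geminin) had -0.23 ± 0.90. The MCM subunits work in 1 complex, and the 95% intervals of all but Mcm5 included 0.

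The DNA synthesis genes had a median of -0.45 over 4. Rrm1, the large subunit of the ribonucleotide reductase that makes deoxynucleotides, measured 13.1, 24.1 and 53.3 CPM in input and 6.70, 18.5 and 41.8 CPM in TRAP, and its groups overlapped over most of their range. Its log2 fold change was -0.47 ± 0.40, and in sequencing run 1 alone it was 0.25, with -1.78 in run 2, and -0.21 without WT input 5. The small subunit Rrm2 had -1.40 ± 0.73, Pcna -0.42 ± 0.45 and Tyms, the thymidylate synthase, 0.42 ± 0.86, with adjusted p from 0.302 to 0.848.

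Among the G2 and M cyclins, Ccnb1 and Ccnb2 passed the filter in input but not in TRAP alone. Ccnb2 had the lowest fold change of the cyclins. It measured 0.640, 6.23 and 59.0 CPM as lowest, median and highest in input and 0, 0.954 and 11.2 CPM in TRAP, with 2 TRAP libraries at 0. By library Ccnb2 was at 34.1, 4.08, 0.640, 3.59 and 11.2 CPM in KO input, 8.38, 59.0 and 1.21 CPM in WT input, 0, 0.981, 5.70, 0.565 and 0.801 CPM in KO TRAP and 0.950, 0, 3.37, 0.958 and 11.2 CPM in WT TRAP. Its log2 fold change was -2.59 ± 0.97 (adjusted p = 0.129), and the 2 highest input libraries, WT input 2/3 at 59.0 CPM and KO input 1 at 34.1 CPM, stood well above the others. Without WT input 2/3 the log2 fold change was -1.54, without KO TRAP 3 it was -3.54 (adjusted p = 0.0477), and without WT TRAP 5 it was -3.34 (adjusted p = 0.0408). By run, Ccnb2 differed by -3.06 in run 1 and -0.69 in run 2. Ccna2 had -0.92 ± 0.66, Ccnb1 -0.77 ± 1.01 and Cdk1, the kinase that these cyclins activate, 0.01 ± 0.78, so that the median of the 4 genes was -0.84, or -1.67 over the 3 tested in KO libraries alone and -0.30 over 4 in WT libraries alone.

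The mitotic kinase and checkpoint genes had a median of -0.58 over 8, among them Aurkb and Cdc20, which passed the filter in input but not in TRAP alone. Ube2c measured 7.90, 23.8 and 46.5 CPM in input and 1.63, 9.93 and 36.2 CPM in TRAP (log2 fold change -0.91 ± 0.55, adjusted p = 0.385). Without KO TRAP 3, where Ube2c was at 32.2 CPM, it was -1.85 with an adjusted p of 0.0251. Aurka and Aurkb, the Aurora kinases of the spindle poles and the centromeres, had -1.64 ± 0.97 and -1.38 ± 1.05. Plk1, the polo-like kinase that drives entry into mitosis, had a positive value of 1.75 ± 1.06 (adjusted p = 0.387), in which KO TRAP 2 at 43.2 CPM stood far above the other TRAP libraries at 0 to 5.40 CPM. With the replicate number as a block the median of the 8 genes was -1.17.

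All 6 mitotic chromosome and spindle genes had a negative value, with a median of -0.45, and none passed the threshold. For Cenpe and Cenpf, which passed the filter in input but not in TRAP alone, the filter favoured that sign. Cenpe, the kinesin of the kinetochore, had the lowest at -2.80 ± 1.19 (adjusted p = 0.189), with no read in 6 of 10 TRAP libraries and 1 of 8 input libraries. Mki67, the proliferation antigen Ki-67, had -0.33 ± 0.73, Top2a, the topoisomerase that untangles chromosomes, -0.36 ± 0.60, and Prc1, the bundler of the central spindle, -1.03 ± 0.62. Without KO TRAP 4 the median of the 6 genes was -0.92.

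No member separated the TRAP from the input libraries without overlap, beside 0.442% of all genes that were higher and 0.309% that were lower in every TRAP library. Members with an E2F match had a median log2 fold change of -0.66 (n = 7), those with a CHR match -0.69 (n = 18) and those with a promoter window but neither match -0.42 (n = 5), and their ranges overlapped. The plot of fold changes by role shows most estimates to the left of 0.

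**Figure D3:**
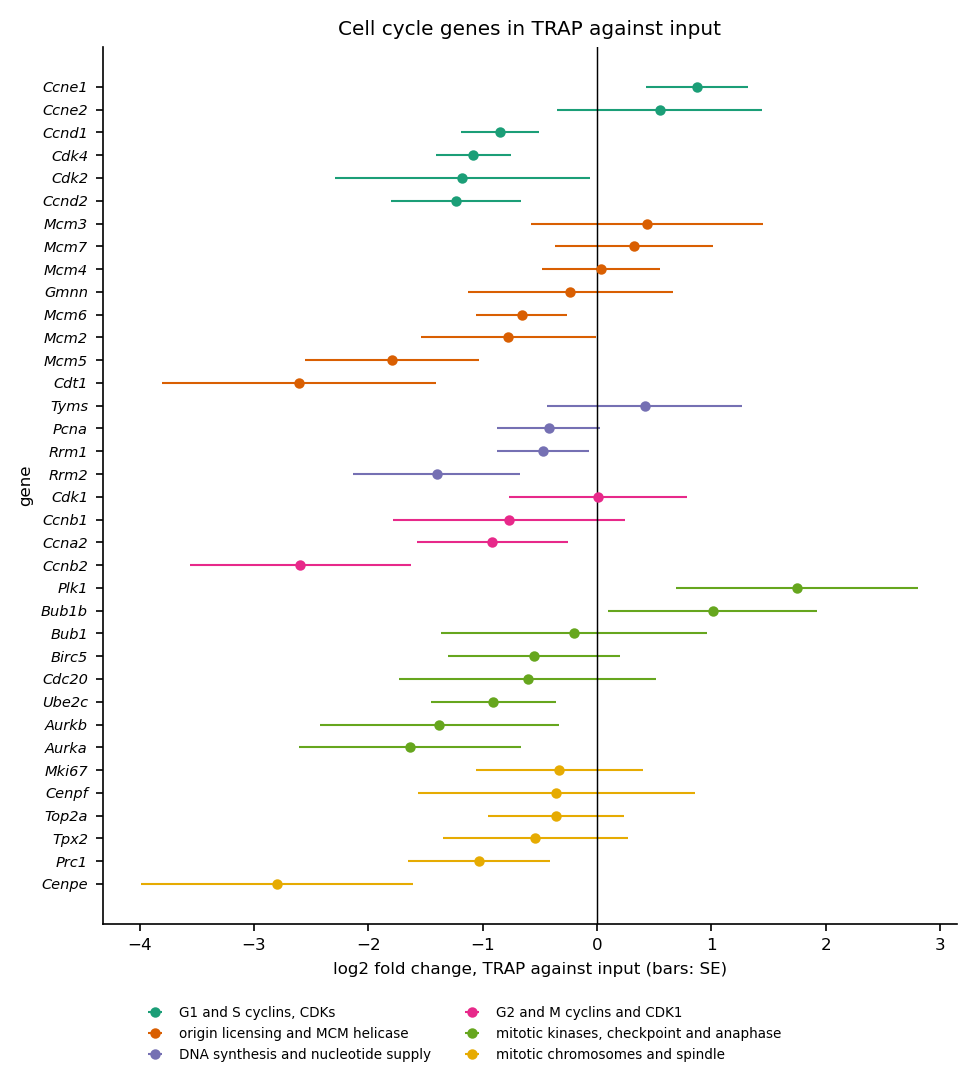
Log2 fold change of TRAP against input (x axis, points with SE) for the 36 members tested (y axis), coloured by role and ordered within a role. 27 of 36 points lie left of 0, Cenpe being the lowest at -2.80 and Plk1 the highest at 1.75. The points left of 0 include all genes that passed the filter in input but not in TRAP alone, Cenpe among them.

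Genes of the same machinery outside the 37 were also tested in TRAP against input, where 2.41% of all genes were called higher and 2.31% lower. Of 41 tested replication origin and fork genes 0 were called, with a median of -0.06. Orc6, a subunit of the origin recognition complex, had the smallest p, at 0.73 ± 0.28. Of 38 spindle, kinetochore and condensation genes 0 were called, with a median of -0.45, and the smallest p values were those of Pttg1 (securin, -1.40 ± 0.44) and the checkpoint gene Bub3 (0.64 ± 0.25). Of 18 CDK inhibitors and brakes 0 were called (median -0.04), led by Gas1 at -2.05 ± 0.76 and Cdkn2c, the p18 inhibitor of CDK4 and CDK6, at -2.97 ± 1.20. Of 20 E2F factors and G1 regulators 1 was called, Cdk6, which pairs with the D-type cyclins as Cdk4 does. Cdk6 had a mean of 9.40 ± 14.6 CPM (SD, n = 8) in input and 1.12 ± 3.28 CPM (n = 10) in TRAP, a log2 fold change of -5.04 ± 1.42 (SE, edgeR adjusted p = 0.0383). Its SD was above its mean in both kinds of RNA. A gene with enough reads in input alone could enter this comparison, which favours negative values. In TRAP alone, 34, 21, 15 and 16 genes of these lists, in the same order, had enough reads to be tested.

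Some markers of glial and progenitor cells were called lower in TRAP, where 2.31% of all genes were. Of 6 oligodendrocyte progenitor markers 4 were lower in TRAP (Olig1, Olig2, Sox10 and Gpr17), while Pdgfra and Cspg4 were not called. The summed level of the 6 was 624 to 1337 CPM in input and 197 to 531 CPM in TRAP, without overlap. Of 8 radial glia and progenitor markers 1 was lower (Fabp7, log2 fold change -2.12 ± 0.27), with sums of 730 to 1508 CPM in input and 182 to 638 CPM in TRAP. Of 8 granule cell precursor markers 6 were tested and 2 were lower (Zic1 and Barhl1), with sums of 144 to 302 CPM in input and 40.3 to 139 CPM in TRAP. Of 6 astrocyte markers 2 were lower, with sums of 342.3 to 493.3 CPM in input and 68.7 to 380.1 CPM in TRAP, and of 6 myelinating oligodendrocyte markers 3 were lower, with sums of 5341 to 13628 CPM and 1358 to 6773 CPM. Of 7 microglia markers 0 were called, with sums of 23.1 to 139 CPM in input and 6.78 to 82.7 CPM in TRAP. The sums of these last 3 lists overlapped between input and TRAP. The part of these cells in the levels of the cell cycle genes was not tested. The plot of summed levels sets the members beside the oligodendrocyte progenitor, radial glia and serotonergic lists.

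**Figure D4:**
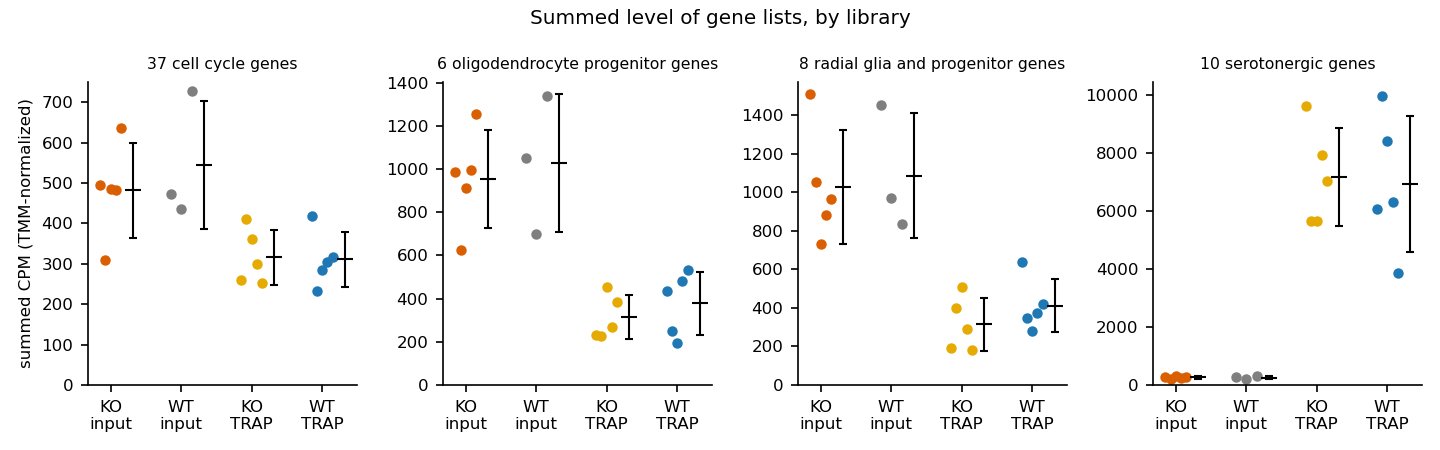
Summed level in CPM after TMM scaling (y axis, from 0, each panel on its own scale) of the 37 members and of 3 marker lists, by library (points) in the 4 groups (x axis), with mean and SD. The members' sums overlap between input and TRAP, while the oligodendrocyte progenitor and radial glia sums are lower and the serotonergic sums higher in every TRAP library.

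The next comparison asked whether the loss of Celf6 changed the cell cycle genes in the whole tissue. None of the 35 members tested in input passed the threshold (0% of 13036 genes were called in either direction), and 376 genes had an unadjusted p below 0.05. The members' median log2 fold change in KO was -0.11, against 0.02 for all genes, with 21 of 35 below 0 (48.7% of all genes). At an unadjusted p below 0.05 stood 1 member that was lower in KO (1.43% of all genes) and 0 that were higher (1.45%). DESeq2 also called no gene in this comparison.

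Bub1b, the checkpoint kinase BUBR1 that holds back anaphase, had the smallest p in input. It measured 1.18, 1.60, 0.854, 1.20 and 0.588 CPM in KO input 1 to 5, and 2.10, 4.54 and 18.1 CPM in WT input 1, 2/3 and 5. Every KO library lay below every WT library, and WT input 5 stood far above the other 2. The lowest KO values lay within the 0.252 to 0.904 CPM that a count of 0 allows. The log2 fold change was -2.57 ± 1.21 (edgeR adjusted p = 1.00) and was -1.44 without WT input 5. By run it was -1.16 in run 1 and -3.91 in run 2, where WT input 5 was the only WT library. An exact two-sided permutation test over the libraries gave p = 0.0179, the smallest that 5 against 3 libraries allow. It was 1 of 6 such tests in input and TRAP, each on a gene that had been picked for its small p. The exact p values were not adjusted for that number of tests. Ccne1 also did not overlap, with 5.54 to 10.3 CPM in KO and 11.3 to 12.1 CPM in WT input. These were 2 of 35 members (5.71%), beside 1.27% of all genes that were lower without overlap and 0.967% that were higher.

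Ccna2, the cyclin of S phase and G2, measured 26.1, 13.4, 33.7, 11.98 and 39.1 CPM in KO input 1 to 5 and 13.3, 16.1 and 4.22 CPM in WT input 1, 2/3 and 5. Its log2 fold change was 1.28 ± 0.68 (edgeR adjusted p = 1.00), and 3 of 5 KO libraries lay above all WT libraries. It was 0.73 without WT input 5, and by run 0.63 in run 1 and 2.27 in run 2. Reads over the exons that Ccna2 shares with Exosc9 cannot be assigned without strand. Cdc20, the activator of the anaphase-promoting complex, measured 0.675, 0.437, 0.640, 10.8 and 3.82 CPM in KO input and 10.8, 1.09 and 7.54 CPM in WT input in the same order. Its log2 fold change of -2.37 ± 1.32 (edgeR adjusted p = 1.00) was -0.50 without WT input 1, and its exons overlap those of Elovl1. The exact two-sided permutation test in input gave p = 0.125 for Ccna2 and p = 0.25 for Cdc20.

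The width of the intervals differed between genes. Cdk4 in KO against WT input had a log2 fold change of -0.56 with a 95% interval from -1.27 to 0.16, and Mcm6 had -0.27 with an interval from -1.22 to 0.68. For Plk1, at 0 to 6.24 CPM in the input libraries, the interval ran from -1.49 to 6.28. Markers of fibroblasts and meninges summed to 446 to 979 CPM in KO input and 1202 to 1483 CPM in WT input, without overlap, with 0 of 5 tested genes called. Their part in the members' values was not tested.

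In TRAP RNA, KO was likewise compared with WT. None of the 27 members tested passed the threshold (0% of 12204 genes were called in either direction), and 455 genes had an unadjusted p below 0.05, while DESeq2 called 1 gene, no member. The members' median log2 fold change was -0.06, against 0.02 for all genes, with 16 of 27 below 0 and 11 above (48% and 52% of all genes). At an unadjusted p below 0.05 stood 1 member that was lower in KO (1.75% of all genes) and 1 that was higher (1.98%). Cdk2, Cdc6, Cdt1, Ccnb1, Ccnb2, Bub1, Aurkb, Cdc20, Cenpe and Cenpf had too few reads in TRAP to be tested.

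Mcm5 had the smallest p in TRAP. It measured 1.12, 0.163, 0.300, 0.754 and 1.60 CPM in KO TRAP 1 to 5 and 2.61, 9.63, 4.61, 9.58 and 2.14 CPM in WT TRAP 1 to 5. All 5 KO libraries lay below all 5 WT libraries, as for 1 of 27 members (3.7%) beside 0.41% of all genes (and 0.311% that were higher without overlap). The lowest KO values lay within or below the 0.252 to 0.904 CPM that a count of 0 allows, so this separation rests on few reads. The log2 fold change was -2.95 ± 1.05 (edgeR adjusted p = 0.9992, and 0.473 in DESeq2, the lowest over the alternatives). An exact two-sided permutation test, 1 of the 6 run, gave p = 0.00794, the smallest that 5 against 5 allow, for a gene picked for its small p. By run the difference was -2.71 in run 1 and -1.75 in run 2. In input the same gene had -1.63 ± 1.47, with groups that overlapped from 1.60 to 12.4 CPM in KO and 0.301 to 22.9 CPM in WT.

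The next smallest p values in TRAP belonged to Plk1 and Mki67, both with a positive sign. Plk1 measured 2.06, 43.2, 5.40, 2.64 and 5.34 CPM in KO TRAP 1 to 5 and 1.43, 0, 0.354, 2.87 and 1.90 CPM in WT TRAP 1 to 5. The log2 fold change was 3.21 ± 1.35 (edgeR adjusted p = 0.9992), 1.78 without KO TRAP 2, and by run 3.44 in run 1 and 0.61 in run 2. Mki67 measured 21.7, 13.1, 6.75, 12.4 and 11.8 CPM in KO TRAP and 8.79, 3.47, 0, 7.18 and 1.43 CPM in WT TRAP in the same order. Its log2 fold change was 1.64 ± 0.94 (edgeR adjusted p = 0.9992), and 4 of 5 KO libraries lay above all WT libraries. The exact two-sided permutation test in TRAP, not adjusted, gave p = 0.0317 for Plk1 and p = 0.0238 for Mki67. In input Mki67 had 1.37 ± 1.10, where KO input 1 was lowest at 0.169 CPM and KO input 3 highest at 29.9 CPM. Mcm6, with more reads, measured 13.1, 12.9, 4.35, 11.9 and 10.2 CPM in KO TRAP and 15.9, 30.3, 24.6, 21.5 and 9.74 CPM in WT TRAP, a log2 fold change of -0.95 ± 0.57 (edgeR adjusted p = 0.9992). The other MCM subunits had log2 fold changes of 0.41 ± 1.10 (Mcm2), 0.42 ± 1.24 (Mcm3), 0.18 ± 0.72 (Mcm4) and 0.17 ± 0.95 (Mcm7), all with intervals that included 0. Genotype values in both kinds of RNA are shown in the plot of KO against WT.

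**Figure D5:**
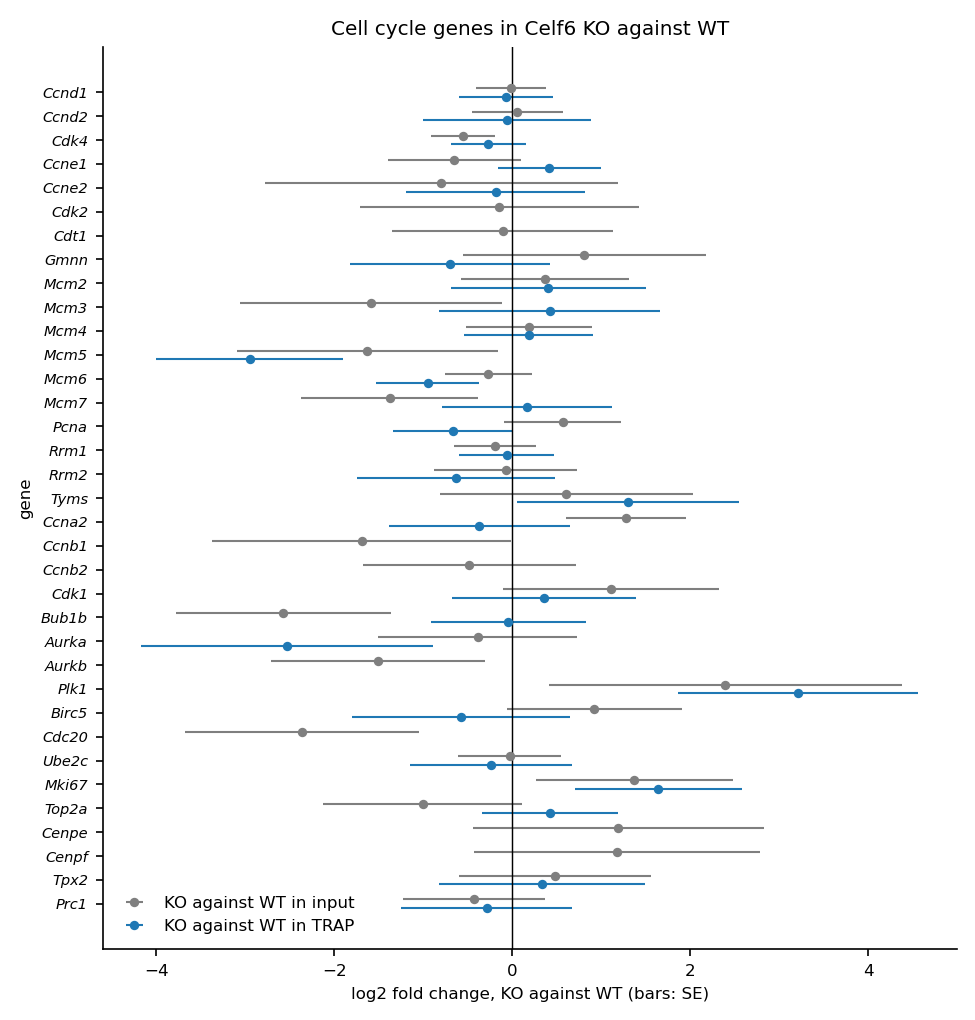
Log2 fold change of KO against WT (x axis, points with SE) in input (grey) and in TRAP (blue) for the members tested (y axis). Values lie on both sides of 0 in both kinds of RNA, with Mcm5 at -2.95 and Plk1 at 3.21 in TRAP.

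Whether the genotype difference itself differed between TRAP and input was tested by the interaction. None of 36 members passed (0% of 14261 genes were called in either direction, and 554 had an unadjusted p below 0.05), while DESeq2 called 3 genes, no member. The median over members was -0.05, against 0.00 for all genes, with 20 of 36 below 0 and 16 above (49.9% and 50.1% of all genes). At an unadjusted p below 0.05 stood 1 member, with a higher value (1.78% of all genes). Bub1b had the smallest p, with an interaction of 3.98 ± 1.58 on the log2 scale (edgeR adjusted p = 1.00), from -2.57 in input to -0.05 in TRAP by the separate fits. In TRAP it measured 16.1, 29.3, 12.6, 0 and 1.07 CPM in KO 1 to 5 and 5.46, 2.68, 17.7, 5.03 and 0.713 CPM in WT 1 to 5, so that the groups overlapped fully. Without WT input 5 the interaction was 1.03.

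Cdk2, the partner of the E-type cyclins, followed with 4.80 ± 2.53 on the log2 scale. It measured 3.37, 0.292, 1.71, 7.43 and 1.76 CPM in KO input 1 to 5 and 1.397, 6.72 and 0.301 CPM in WT input 1, 2/3 and 5. In TRAP it measured 0, 16.2, 0.900, 10.7 and 0 CPM in KO and 0, 0, 0, 1.20 and 1.19 CPM in WT. The high values were 2 KO TRAP libraries, and run 2 alone gave -2.23. Aurkb measured 2.02, 0.437, 5.33, 1.20 and 3.53 CPM in KO input and 0.524, 11.3 and 9.64 CPM in WT input, and 0, 0, 12.3, 3.58 and 0 CPM in KO TRAP and 1.19, 0.158, 0.354, 0.479 and 1.90 CPM in WT TRAP. Its interaction was 3.49 ± 2.12, and KO TRAP 3 and WT input 2/3 held its highest levels. Without KO TRAP 3 its interaction was 0.95.

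The pathway lists outside the 37 genes had 0 calls in either direction in input, in TRAP and in the interaction, over 18 to 41 genes tested per list in the interaction. Splicing was measured as PSI, the share of an isoform of an event between 0 and 1 (which isoform is counted is not settled by the sources used here), and 9 splicing and 3 tandem UTR events lay in member genes. Only the retained intron event of Cdk4 had enough values for a test in either kind of RNA. In input its PSI was 0.0509 ± 0.0567 in KO (SD, n = 5, 0.00416 to 0.139) and 0.00716 ± 0.00244 in WT (n = 3, 0.00453 to 0.00934). The test on log2 odds held PSI at or above 0.01, and all 3 WT values lay below that floor, so no difference is given for input. In TRAP it was 0.0137 ± 0.0128 in KO and 0.0265 ± 0.0230 in WT (n = 5 each), a difference of -0.58 ± 0.62 in log2 odds (limma adjusted p = 0.894), or -1.08 with a floor of 0.001. The groups overlapped in both, and of all splicing events tested, 1154 in input and 1861 in TRAP, 0% were called.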

How the data were processed

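Gene counts were deposited per library by the authors as featureCounts tables (version 1.4.6-p5, per the file headers), on mm10 with reads trimmed by Trimmomatic and aligned by STAR, per the submitters' processing notes; the versions of both are not given in the sources used here. PSI fractions were deposited by the authors from MISO, kept where the credible interval was narrow, per the series' design text. The cDNA was amplified before library preparation, per the labels' protocols. Counting by strand is not stated, so reads over exons that overlap between genes cannot be assigned to 1 gene. This holds for Ccnd1 with Mir3962, Ccne2 with Ints8, Ccna2 with Exosc9 and Cdc20 with Elovl1.

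Counts were analysed here with edgeR 4.0.16 under R 4.3.3: genes passed filterByExpr, libraries were scaled by TMM, and quasi-likelihood F tests had the sequencing run as covariate, with Benjamini-Hochberg adjustment over all genes tested and a threshold of 0.05. KO against WT used the libraries of that kind of RNA, and the other comparisons all 18. TRAP against input averages the KO and WT contrasts with equal weight. The SE of an edgeR value is its absolute log2 fold change divided by the square root of F, and the 95% intervals are normal intervals with that SE. Both are approximate, and the intervals can be too narrow. That of Ccne1 in TRAP against input ran from 0.0007 to 1.75, at an unadjusted p of 0.0604 by the F test. PSI was tested on log2 odds with limma 3.58.1 where each genotype had at least 3 values. DESeq2 1.42.0, other scalings, no filter, no run term and leaving out each library were the alternatives. The fits were also run on data simulated without a run effect, which is not used here as support for any result. Log2 CPM used a prior count of 2. Intervals on counts cover counting error only.

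The members and gene lists were chosen with earlier results of these data known. Values in every library are given for the 3 members with the smallest p in each comparison and the 6 with the highest mean (in TRAP against input by the lowest, median and highest, with the 6 plotted by library and Ccnb2 given in full), and in other lists for the genes called or the 2 with the smallest p; Ccne1 was added after its values were seen. A gene and a sequence that this rule or the text would name are not reported here. Replicate numbers were taken to pair the input and TRAP libraries of 1 brain, from the titles and the design text. The deviations of paired libraries from their group means correlated at -0.01 to 0.08 over 5 KO pairs and -0.05 to 0.00 over 2 WT pairs.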

Additional observations from a re-analysis of the deposited data

Results flagged for a closer look

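Over 45 sets of 5 libraries (members by group), a gap between the lowest or highest library and the rest was tested by Dixon's ratio on the log2 CPM scale, and in 2 the ratio was above the 95% critical value, where chance gives about 1 in 20. Mcm6 in KO TRAP 3 (ratio 0.765) was at 4.35 CPM, with the other KO TRAP libraries at 10.2 to 13.1 CPM. Ccna2 in WT TRAP 2 (ratio 0.745) was at 0.947 CPM, with the other WT TRAP libraries at 8.86 to 17.6 CPM. The ratio is not that of the CPM values, on which the test was not run.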

How the results depend on the processing

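All 4 counts of members past the threshold were 0 under edgeR with TMM. In TRAP against input they were 2 with DESeq2, 1 with RLE factors, 3 with no filter on low counts and 1 without the run term, and 0 to 4 when a library was left out. Over all genes, TRAP against input gave 673 calls, 1290 with DESeq2, 1065 with no filter, 160 in WT and 124 in KO libraries alone (fewer samples), and 346 (without WT input 5) to 831 (without KO TRAP 3) when a library was left out. KO against WT in input gave 4 calls with no filter and 0 to 1 when a library was left out. In TRAP it gave 1 with DESeq2 and 16 with no filter, and the interaction gave 3 with either. The members' median in input was 0.29 in run 2 alone, with WT input 5 as the only WT library. That of the interaction was -0.54 in run 2 alone and ran from -0.23 to 0.45 (without WT TRAP 1) when a library was left out. The sign turned for Cdk2 in the interaction (-2.23 in run 2 alone) and Rrm1 in TRAP against input (0.25 in run 1 alone). The cause of these changes was not tested.

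With the replicate number as a block, which pairs the libraries of a brain, TRAP against input gave 540 genes and 0 members, a member median of -0.66 and Cdk4 at -1.03 (edgeR adjusted p = 0.115). The block changed no call of a named member. KO and WT libraries of the same number share only that number, and their block gave 0 genes in input and 0 in TRAP. Members differed more between libraries of a group than between repeat runs of 1 library, and the 95% intervals of many reach a change of several times.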
